A study of Mus musculus with 5 samples.

Results

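Interstitial C1q macrophages were selected by their transcripts from 4 single-cell RNA-seq libraries of unsorted mouse lung. A cell was a member when it had at least 2 of C1qa, C1qb and C1qc detected, with the 3 genes together at 1000 counts per 1000000 counts of that cell (CPM) or more, and neither the B cell gene Cd79a nor the T cell gene Cd3e. Only cells with more than 700 and fewer than 8000 detected genes and under 5% of counts from mitochondrial (mt-) genes entered. This gave 169 members among 12707 filtered cells of unsorted lung, out of 13200 filtered cells in the series. All mice were C57BL/6J with no genetic change. Newborns breathed room air, or hyperoxia of more than 95% O2 for 3 days together with their mothers and then room air until harvest. Lungs were taken on postnatal day (pnd) 7 or 60, which gave the groups air pnd7, hyperoxia pnd7, air pnd60 and hyperoxia pnd60, each with 1 library. The number of mice behind each unsorted library was not given in the sources used here. A further library held cells of hyperoxia pnd7 lungs from 3 pooled mice, sorted for C12FDG, a fluorescent substrate of the lysosomal enzyme β-galactosidase. It entered no test and no comparison of age or exposure, and it is set beside the unsorted libraries only as a description.

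C1q is the recognition molecule that starts the classical complement pathway, and it also binds dying cells before they are engulfed. It is built from A, B and C chains that are made largely by tissue macrophages. In the lung, alveolar macrophages live in the airspace and handle surfactant. Interstitial macrophages live in the tissue around airways, vessels and nerves and are known for antigen presentation, complement production and chemokines. Some of them carry Lyve1 and Folr2 and lie along blood vessels, and others carry much MHC class II.

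The genes that select these cells lie side by side on the minus strand of chromosome 4 (RefSeq, build GRCm38.p6). C1qb spans chr4:136880126-136886200, C1qc spans chr4:136889801-136892936 and C1qa spans chr4:136895916-136898844. The 250 bases before the start of C1qb (chr4:136886201-136886450) and of C1qc (chr4:136892915-136893164) are printed because these genes define every member, and the window of C1qc overlaps the end of its own annotated span. Capitals mark 2 short motifs searched on both strands, GAGGAA (reverse TTCCTC), a core of sites of the myeloid factor PU.1, and TGCTGA (reverse TCAGCA), a core of sites of MAF factors.
C1qb: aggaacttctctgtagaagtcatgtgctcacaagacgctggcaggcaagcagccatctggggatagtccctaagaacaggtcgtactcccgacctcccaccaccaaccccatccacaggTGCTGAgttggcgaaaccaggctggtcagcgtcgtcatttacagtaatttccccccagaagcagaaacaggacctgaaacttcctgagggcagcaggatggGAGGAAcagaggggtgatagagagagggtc
C1qc: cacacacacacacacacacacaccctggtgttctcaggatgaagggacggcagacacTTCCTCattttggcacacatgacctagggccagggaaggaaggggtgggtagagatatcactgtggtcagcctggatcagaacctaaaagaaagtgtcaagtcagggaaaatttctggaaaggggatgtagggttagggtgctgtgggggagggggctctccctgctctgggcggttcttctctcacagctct
The PU.1 letters occurred once in each window and the MAF letters once in that of C1qb. Of 32851 such windows of 250 bases, 23.3% held the PU.1 letters and 16.1% the MAF letters. A match of letters describes the sequence only.

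The members numbered 30 in air pnd7, 20 in hyperoxia pnd7, 67 in air pnd60 and 52 in hyperoxia pnd60. They carried 318160, 242764, 261085 and 202162 counts in all, so 3 counts, the limit that a count of 0 allows, corresponded to 9.43, 12.4, 11.5 and 14.8 CPM. The median member held 8867, 12712, 3378 and 3898.5 counts in that order. Cells were therefore deeper at pnd7, and age, depth per cell and library cannot be told apart. No member shared its barcode with a member of another library. In the order of the libraries, C1qa stood at 3665, 4614, 5485 and 6435 CPM, C1qb at 3505, 4634, 4677 and 5461 CPM, and C1qc at 2873, 3662, 3378 and 3784 CPM. These genes chose the cells, so their levels are a description. The lowest sum inside the limit was 1163, 1180, 1163 and 1416 CPM per cell, and the highest outside it was 789, 722, 988 and 655 CPM. Members under 2000 CPM numbered 5, 1, 3 and 1, and cells outside the limit with 500 to 1000 CPM numbered 1, 1, 4 and 2.

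The label was checked against markers that the rule did not use. Ms4a7, a membrane protein of tissue macrophages, was detected in 19 of 30, 17 of 20, 45 of 67 and 42 of 52 members, at 522, 676, 590 and 697 CPM. Pf4 was listed at 0 in every library. The MHC class II chains H2-Aa, H2-Ab1 and H2-Eb1 had 84, 93 and 52 counts over all barcodes of the series, against 206925 for Cd74. The features of these 4 genes have copies in the table, so their levels were not used to judge the label. At least 3 of 8 macrophage genes (among them Csf1r, Adgre1, Cx3cr1, Fcgr1, Mertk, Cd14 and Tyrobp) were detected in 22 of 30 members of air pnd7, 19 of 20 of hyperoxia pnd7, 66 of 67 of air pnd60 and 52 of 52 of hyperoxia pnd60. The 8 members of air pnd7 that lacked them were shallow, with a median of 1351.5 counts against 11821.5 in the others. Markers of epithelial, endothelial, mesenchymal and red blood cells made up 1% or more of the counts in 11 members of air pnd7, 2 of hyperoxia pnd7, 2 of air pnd60 and none of 52 of hyperoxia pnd60. Single members reached 30.5%, 63.1% and 60.9% in the first 3 of these libraries. Of the 8 shallow members of air pnd7 described above, 6 were among its 11 members with 1% or more. Air pnd7 thus held the largest share of members with foreign transcripts. The surfactant gene Sftpc stood at 7031 CPM there, 84% of it from 1 cell. In most of its members with 1% or more, hemoglobin made up the larger part, and the member at 30.5% held 29.1% hemoglobin. Both limits were set after seeing the data, and results are given with and without these cells where they matter.

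The share of C1q macrophages among filtered cells was 1.30% in air pnd7 (30 of 2308, 95% Clopper-Pearson interval 0.879 to 1.85), 1.61% in hyperoxia pnd7 (20 of 1246, 0.983 to 2.47), 1.52% in air pnd60 (67 of 4397, 1.18 to 1.93) and 1.09% in hyperoxia pnd60 (52 of 4756, 0.818 to 1.43). The 4 intervals overlapped, and they cover counting error only. A lower share in a dissociated lung cannot be told apart from a poorer release of these cells. Without the members of air pnd7 that held 1% or more of foreign transcripts, its share of all 2308 cells was 0.823%. When members and other cells alike had under 10% of counts from hemoglobin, it was 1.51% (24 of 1585).

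**Figure D1:**
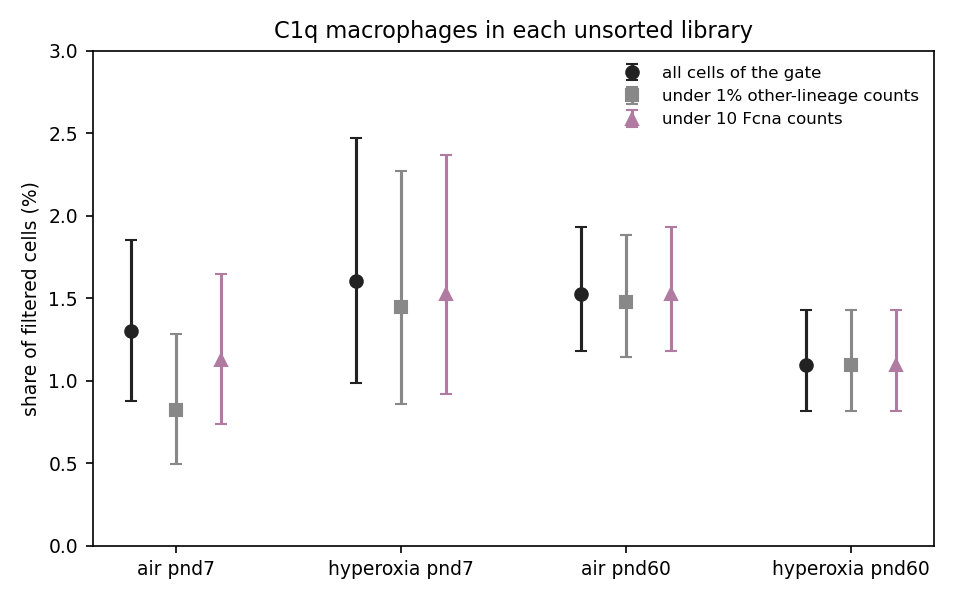
Share of C1q macrophages among filtered cells (%) in the 4 unsorted libraries, with 95% Clopper-Pearson intervals, for all members, for members with under 1% of counts from markers of other lineages and for members with under 10 counts of Fcna. The shares of all members ran from 1.09% to 1.61% with overlapping intervals.

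C1q macrophages were then compared with 461 alveolar macrophages of the same libraries, taken as cells with 2 or more of Chil3, Ear1, Marco, Siglecf and Krt79 and their sum at 1000 CPM or more. Apoe, which carries lipid out of macrophages, stood at 15241, 14022, 14095 and 16670 CPM in air pnd7, hyperoxia pnd7, air pnd60 and hyperoxia pnd60, against 150, 313, 115 and 96.5 CPM in alveolar macrophages. Every C1q library was far above every alveolar one, with a log2 fold change of 6.75 ± 0.31 (SE, adjusted p = 1.3e-06, edgeR). Counts were summed per library and class and tested with library as a block, leaving out genes used to select either class. The call was an adjusted p under 0.05 with a 2-fold change or more, and 634 genes were higher (9.67% of 6558 tested) and 571 lower (8.71%).

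Genes of interstitial macrophages were higher as a group. Of 20 listed, 18 were tested, 16 were higher and only Mertk was lower, with a median log2 difference of 3.79 against 0.042 over all genes tested. Fcrls, an Fc receptor-like scavenger molecule, stood at 462, 849, 632 and 569 CPM in C1q macrophages and at 0 in alveolar macrophages apart from 0.68 CPM in hyperoxia pnd60. Cx3cr1, the fractalkine receptor, stood at 770, 1145, 1544 and 1835 CPM against at most 9.51 CPM. For both genes no alveolar library came near a C1q library. Of 19 engulfment and scavenger receptors tested, 7 were higher (Stab1, Cd163, Gas6, Fcgr1, Fcgr3, Msr1 and Fcgr2b) and 3 lower (Clec7a, Mertk and Axl). Mertk and Axl are receptors for dying cells. Mertk stood at 101, 90.6, 180 and 139 CPM in C1q macrophages against 296, 229, 576 and 531 CPM (log2 −1.52 ± 0.18, adjusted p = 0.00022, edgeR).

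Members of the Lyve1-high list were also higher, 8 of 10 tested, with Clec4n the only one lower. Folr2, a folate receptor, stood at 229, 198, 352 and 391 CPM against 0 in every alveolar library. F13a1, a coagulation factor subunit of the same list, stood at 503, 428, 540 and 742 CPM against at most 1.71 CPM, and Stab1, a scavenger receptor outside it, at 682, 717, 862 and 1281 CPM against at most 5.24 CPM. Genes with no count or few counts in the alveolar libraries entered the test through the C1q libraries alone. Among them were Fcrls, Cx3cr1, Folr2, F13a1, Stab1, Cd163, C3ar1, Ccl12 and Ccl7. Their fitted fold change depends on the prior count of the fit, so neither it nor a p-value is given. Such members could hardly be called lower, so the tallies and medians of lists that hold them are a description. A like limit holds for genes near 0 in C1q macrophages or, below, in monocytes. The scavenger receptor Cd163 stood at 170, 57.7, 184 and 272 CPM against at most 1.71 CPM, although 86% of its counts in hyperoxia pnd7 came from 1 cell.

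Chemokines formed the next group. Of 19 listed, 9 were tested, 8 were higher and Ccl6 was lower, with a median of 3.96. This tally holds Ccl12 and Ccl7, which entered the test through the C1q libraries alone. Ccl12, a ligand that draws monocytes, stood at 349, 976, 207 and 465 CPM against at most 1.36 CPM, and Ccl7, of the same kind, at 280, 869, 126 and 312 CPM against at most 0.755 CPM. Ccl2 stood at 418, 680, 245 and 396 CPM against 22.2, 6.99, 17.4 and 14.3 CPM. These 3 ligands were thus read almost only in C1q macrophages of the pair. Ccl3, Ccl4, Ccl9, Ccl24 and Cxcl2 made up the rest of the group.

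Among 9 complement genes tested, 4 were higher, C3ar1, Itgam and Cfp among them, and the integrin chains Itgax and Itgb2 were lower. C3ar1, the receptor for the C3a fragment, stood at 286, 486, 590 and 663 CPM against at most 3.49 CPM. Of 8 growth factor genes tested, Igf1, Gas6, Pdgfb and Pdgfa were higher and none of 8 was lower, and Igf1 stood at 424, 453, 544 and 529 CPM against 18.8, 38.4, 38.5 and 26.5 CPM. In C3ar1 and Igf1 the libraries of the classes did not overlap.

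Lysosome and lipid genes split, 7 higher and 9 lower of 28. Lgmn and Ctsb, lysosomal proteases, and Abca1, a cholesterol exporter, were higher. Lpl, which releases fatty acids from lipoproteins, Spp1, Lgals3, Plin2, the exporter Abcg1 and the protease Ctsd were lower. Of the alveolar macrophage markers outside the selection, 9 of 10 tested were lower, Plet1 at 47.1, 0, 34.5 and 0 CPM against 1270, 1646, 1729 and 1603 CPM, and Pparg, a lipid-sensing factor of alveolar macrophages, by −4.04 ± 0.34. The exception among the 10 was Mrc1, the mannose receptor, at 1292, 1792, 1264 and 1415 CPM against 850, 835, 1037 and 1061 CPM, a fitted log2 difference of 0.72 ± 0.17 that did not reach 2-fold. Immediate early genes, transcribed within minutes of stimulation or tissue dissociation, were higher in 11 of 15 and lower in 0 of 15.

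**Figure D2:**
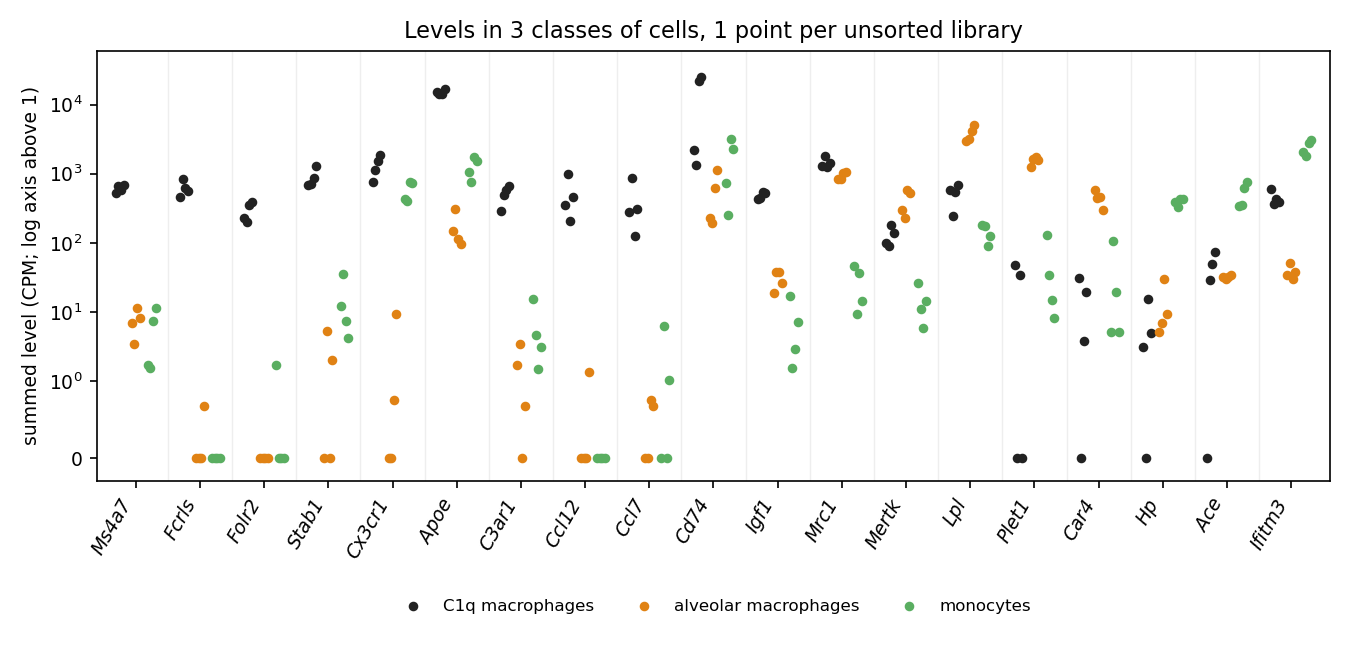
Level (CPM, symmetric log axis) of 19 genes in C1q macrophages, alveolar macrophages and monocytes, with 1 point per unsorted library. Ms4a7, Fcrls, Folr2 and Ccl12 lie far above both other classes, while Plet1 and Car4 mark alveolar macrophages and Hp and Ace mark monocytes.

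Monocytes, which can give rise to tissue macrophages, were the second class compared. They were 590 cells with Csf1r, Plac8 and Lyz2 detected and no C1q gene. In the same kind of fit, 547 genes were higher in C1q macrophages (8.52% of 6423 tested) and 471 lower (7.33%). Interstitial macrophage genes were higher in 16 of 17 and lower in 0 of 17, with a median of 3.32 against 0.032 over all genes tested. The members of the Lyve1-high list were higher in 9 of 10. Fcrls was at 0 in every monocyte library and entered the test through the C1q libraries alone, so no p-value is given. Ms4a7 stood at 1.73, 1.56, 7.43 and 11.4 CPM in monocytes, all far under the C1q libraries. Cx3cr1 separated the classes less, with 432, 406, 755 and 724 CPM in monocytes and a log2 fold change of 1.24 ± 0.18.

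Engulfment and scavenger receptors were higher in C1q macrophages than in monocytes in 10 of 19 tested and lower in 2, the latter Fcgr4 and Clec7a. Mertk, at most 25.9 CPM in monocytes, was higher by 3.21 ± 0.39, and the mannose receptor Mrc1 by 5.89 ± 0.42. Lysosome and lipid genes were higher in 13 of 27, and only Lgals3 was lower. Dab2, an endocytic adaptor, stood at 1446, 1561, 1536 and 1766 CPM against 43.2, 21.8, 5.94 and 11.4 CPM. The iron exporter Slc40a1, the heme-degradation enzyme Blvrb, Cd163 and Ncoa4 were higher among 11 iron and heme genes.

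Interferon-stimulated genes were lower, 9 of 12 with none higher of 12 and a median of −1.52. Ifitm3 stood at 607, 371, 425 and 391 CPM in C1q macrophages against 2095, 1819, 2742 and 3039 CPM (log2 −2.36 ± 0.22, adjusted p = 0.00011, edgeR), and the libraries did not overlap. The regulator Irf7 was lower by −2.93 ± 0.46. Monocyte markers were lower in 9 of 10, among them Hp at −5.99 ± 0.39, and Ace at −3.87 ± 0.42. The monocyte selection carried epithelial transcripts, with Sftpc at 9880, 10207, 4070 and 2731 CPM against 7031, 169, 195 and 232 CPM in C1q macrophages, and 5 of 6 alveolar epithelial markers were lower in C1q macrophages. Endothelial markers were lower in 4 of 7 tested (Tie1, Vwf, Ramp2 and Cdh5) with a median of −1.63, and their summed level was 498, 2010, 405 and 470 CPM in monocytes against 101, 148, 214 and 317 CPM. The part of those transcripts in the other values was not tested.

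Within C1q macrophages, cells were thinned to 2000 counts before subsets were counted, and 10, 2, 11 and 11 shallower members were left out. Counts of Lyve1 or Folr2 were found in 8 of 20, 3 of 18, 17 of 56 and 14 of 41 members of air pnd7, hyperoxia pnd7, air pnd60 and hyperoxia pnd60. In alveolar macrophages, given for comparison, the shares were 2 of 54, 3 of 45, 1 of 169 and 0 of 174, and the source of these counts was not tested. At least 5 counts of MHC class II genes, nearly all from Cd74, were found in 3 of 20 (15.0%), 3 of 18 (16.7%), 47 of 56 (83.9%) and 37 of 41 (90.2%) members. Alveolar macrophages gave 1 of 54, 6 of 45, 17 of 169 and 30 of 174. Without thinning, Lyve1 or Folr2 was found in 40%, 35%, 32.8% and 38.5% of members, so the low value of hyperoxia pnd7 was not seen there, and 5 counts of MHC class II genes in 23.3%, 40%, 88.1% and 90.4%. At 1000 counts the MHC class II share of air pnd7 was 6.67%. Members with both features numbered 0, 0, 10 and 11, and 6.67%, 5%, 25.4% and 32.7% without thinning. The features were thus not exclusive at pnd60. At pnd7 they met only in cells that were not thinned, for which no alveolar share is given, so these values decide nothing there. At least 2 counts summed over the cell cycle genes were found in 7 of 20, 6 of 18, 8 of 56 and 7 of 41 members. These 2 counts can come from 1 gene. In cells that were not thinned the shares were 73.3%, 75%, 29.9% and 36.5%. The thinned counts rest on 1 random thinning, and in hyperoxia pnd7 the 17 deep members with 3 of 8 macrophage genes, thinned separately, gave 52.9%. Lyve1 itself stood at 431, 90.6, 134 and 183 CPM, with 50%, 91%, 34% and 43% of its counts from 1 cell.

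**Figure D3:**
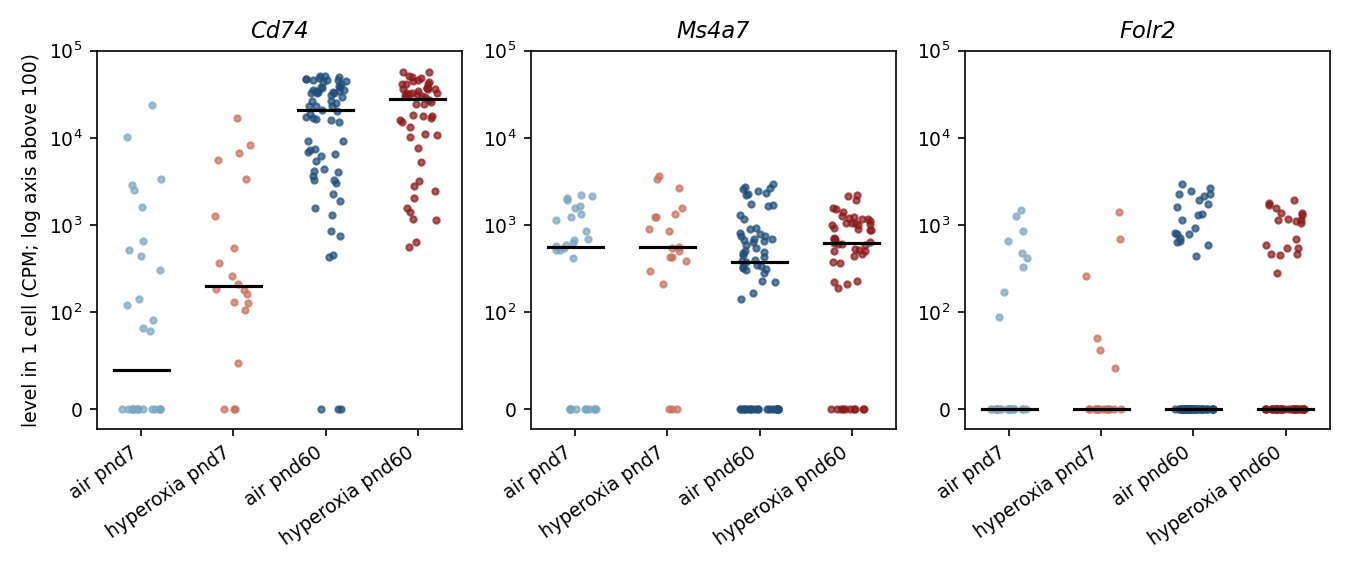
Level of Cd74, Ms4a7 and Folr2 (CPM, log axis with 0 shown) in each C1q macrophage of the 4 unsorted libraries, where bars mark the median. The median of Cd74 is 40.4 and 199 CPM in the pnd7 libraries and 20813 and 28041 CPM in those of pnd60.

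The largest contrast among C1q macrophages was with age. Cd74, the invariant chain that guides MHC class II molecules to the lysosome, stood at 2210 CPM in air pnd7, 1359 CPM in hyperoxia pnd7, 21794 CPM in air pnd60 and 25094 CPM in hyperoxia pnd60. Both pnd60 libraries were far above both pnd7 libraries, where 47% and 67% of the counts came from 1 cell. Cd74 was detected in 15 of 30, 17 of 20, 64 of 67 and 52 of 52 members, with medians per cell of 40.4, 199, 20813 and 28041 CPM. The log2 ratio of pnd60 to pnd7 was 3.30 in air (95% interval 3.19 to 3.42) and 4.21 in hyperoxia (4.05 to 4.37), from exact binomial intervals that cover counting error only. Alveolar macrophages also held more Cd74 at pnd60, with ratios of 1.45 and 2.54, as did monocytes, with 2.12 and 3.19. Ciita, the master regulator of MHC class II transcription, stood at 56.6, 20.6, 211 and 183 CPM.

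With 1 library per condition, each ratio between 2 libraries has no replicate check. Among genes with 100 or more counts over both libraries, 130 were 2-fold or more higher at pnd60 in air (14% of 929) and 141 lower (15.2%), and in hyperoxia 82 were higher (12.2% of 674) and 90 lower (13.4%). The latter split became 68 higher and 114 lower when totals left out mitochondrial, hemoglobin, Malat1 and Rn7sk counts. A fit over the 4 libraries with age and exposure as terms left 1 residual degree of freedom. In it edgeR called 514 genes higher (10.6% of 4832) and 480 lower (9.93%) at pnd60, and DESeq2 called 149 of the same genes tested. The edgeR counts of gene lists for age given below are to be read beside these 2 shares. Both tools called 68 genes higher and 80 lower, and the genes described next as raised or reduced with age are among these 148 unless stated.

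Some receptors and regulators of macrophages were raised. Cd14, a co-receptor for lipopolysaccharide, was raised by 1.14 ± 0.23 (adjusted p = 1.5e-05, edgeR) and stood at 245, 358, 666 and 732 CPM, and Zfp36l1, an RNA-binding protein, at 717, 894, 1842 and 1736 CPM. In both, each pnd60 library was above each pnd7 library. Of 18 interstitial macrophage genes tested, edgeR called 5 higher and 0 of 18 lower with a median of 0.54, and Ms4a7 and Apoe differed by 0.02 ± 0.21 and −0.02 ± 0.11. Ccr2, the receptor for Ccl2, Ccl7 and Ccl12, stood at 192, 111, 598 and 791 CPM (2.09 ± 0.25), and in 4, 4, 24 and 19 members. Markers of other cell types moved with age too. Of 5 monocyte markers tested, edgeR called 4 higher (Ccr2, Pou2f2, Nr4a1 and Ace) and Fn1 lower, and the list summed to 3134, 984, 1754 and 1707 CPM against 5295 CPM or more in monocytes, led by Fn1 at pnd7 and Ccr2 at pnd60. Of 10 dendritic cell markers 2 were tested and Siglech was called higher by edgeR and not by both tools, at 0, 4.12, 103 and 139 CPM. The dendritic list summed to 37.7, 74.1, 280 and 252 CPM, with Xcr1, Clec9a and Ccr7 at 0 in all 4 libraries. Of the other lineages, edgeR called 5 of 5 red blood cell genes and 4 of 6 mesenchymal markers lower and Inmt higher, Sftpc lower and Hopx higher, and both airway epithelial markers tested, Tppp3 and Scgb1a1, higher. The summed levels were 8794, 62118, 9702 and 29.7 CPM for red blood cell genes, 2848, 53.5, 931 and 242 CPM for mesenchymal markers, 7782, 210, 329 and 416 CPM for alveolar epithelial markers and 198, 20.6, 586 and 559 CPM for airway epithelial markers. Apoe was at 0 in 4 members of air pnd60 and 2 of hyperoxia pnd60, each with a count of Ccr2, and in 1 of hyperoxia pnd7 without one. In members without a count of Ccr2, a split chosen after seeing the data, Cd74 stood at 201, 439, 13708 and 17628 CPM. The log2 ratios of pnd60 to pnd7 were then 6.09 in air and 5.33 in hyperoxia. The split left out the members richest in Cd74 at pnd7. They held 331, 211 and 120 of 703 Cd74 counts in air pnd7, and 221 of 330 in hyperoxia pnd7. A Ccr2 count of 0 also depends on depth per cell, so these 2 ratios are a description only. The part of cells with a count of Ccr2, or with none of Apoe, in the other age differences was not tested. Axl stood at 132, 177, 509 and 490 CPM, and the integrin chain Itgax at 50.3, 45.3, 237 and 203 CPM.

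Of the lysosomal genes, Ctss, a protease that cuts the invariant chain, was raised by 1.08 ± 0.20, at 1169, 1380, 2838 and 2884 CPM. Psap, a precursor of lipid-degrading cofactors, stood at 1590, 1479, 4286 and 4056 CPM. The pnd7 and pnd60 libraries did not overlap in either gene. EdgeR called 4 of 25 lysosome and lipid genes higher and 1 lower, beside 10.6% higher and 9.93% lower of all genes tested. The median was 0.13 against 0.025 over all genes tested, so the list as a whole is not read as raised.

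Immediate early genes were raised in 8 of 15 by edgeR and in 7 of 15 by both tools, and none of 15 was reduced. Egr1 stood at 292, 239, 1291 and 1291 CPM (2.19 ± 0.21), Dusp1, a phosphatase that ends stress signals, at 836, 1252, 3210 and 2547 CPM, and Btg2 at 273, 309, 1153 and 1162 CPM. Jun differed by −0.11 ± 0.21, at 1458, 1413, 1413 and 1415 CPM. The summed level of the list was 8929, 10339, 19997 and 20518 CPM in C1q macrophages, 4424, 5143, 7916 and 8187 CPM in alveolar macrophages and 9180, 8775, 23030 and 21133 CPM in monocytes. All 3 classes were thus higher at pnd60. The part of tissue dissociation in these values was not tested.

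Some genes with no or 1 count at pnd7 were read in part of the members at pnd60. Ccl8, a ligand for several chemokine receptors, stood at 0, 0, 498 and 287 CPM, from 0 of 30, 0 of 20, 12 of 67 and 15 of 52 members, with 48% and 16% of the pnd60 counts from 1 cell, and in air the log2 ratio was at least 5.72 against a floor of 3 counts. Pla2g2d, a secreted phospholipase of resident macrophages, stood at 0, 0, 165 and 371 CPM, and Mmp12, macrophage elastase, at 0, 4.12, 222 and 356 CPM. Neither alveolar macrophages nor monocytes held a count of Ccl8 or Pla2g2d in any library. Ccl8 and Pla2g2d were called by edgeR and not by both tools. Mmp12 was called by both tools, and in hyperoxia pnd60 46% of its counts came from 1 cell. All 3 genes entered the test through the pnd60 libraries, and their fitted fold changes depend on the prior count, so they are not given.

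Cell cycle genes and some single genes were reduced at pnd60. Stmn1, a microtubule regulator of dividing cells, stood at 443, 387, 91.9 and 98.9 CPM, and Hmgb2, a chromatin protein, at 880, 330, 149 and 168 CPM, both called by both tools. All 7 cell cycle genes tested were lower by edgeR, and the summed level of the list was 2914, 1339, 375 and 371 CPM. Slc40a1, the iron exporter ferroportin, stood at 302, 325, 34.5 and 49.5 CPM (−3.00 ± 0.35, adjusted p = 1.2e-15, edgeR), and it was detected in 17 of 30, 12 of 20, 5 of 67 and 3 of 52 members. Blvrb stood at 443, 408, 149 and 183 CPM. Of 11 iron and heme genes tested, edgeR called 0 higher and 3 lower, namely Slc40a1, Blvrb and Hfe. The chemokine receptor Ccr1 stood at 374, 383, 76.6 and 69.3 CPM (−2.45 ± 0.30). In each of these genes both pnd7 libraries were above both pnd60 libraries.

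Of 11 chemokine ligands tested for age, edgeR called Ccl8 higher and 5 lower, namely Ccl6, Ccl24, Ccl7, Ccl12 and Ccl3. Ccl7 was reduced by −1.42 ± 0.25 and Ccl24, an eosinophil attractant, by −2.62 ± 0.36, at 305, 169, 42.1 and 39.6 CPM. Ccl6 stood at 1399, 2035, 613 and 381 CPM, but 88% of its counts in hyperoxia pnd7 came from 1 cell rich in Fcna. Without the members with 10 or more Fcna counts, its age difference was 0.09 with an adjusted p of 0.83 by edgeR.

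**Figure D4:**
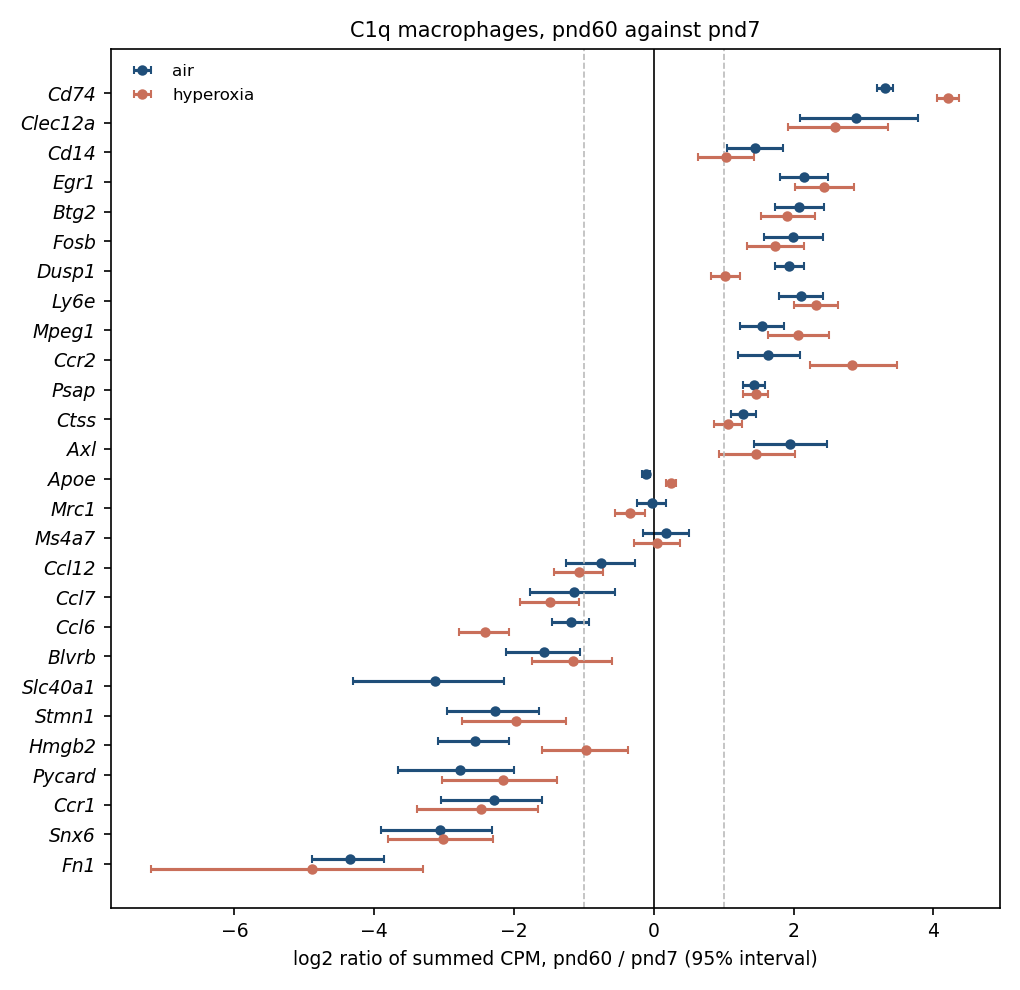
Log2 ratio of CPM at pnd60 to pnd7 in C1q macrophages, in air and in hyperoxia, with 95% exact binomial intervals. Dashed lines mark 2-fold, and only genes with 100 or more counts over both libraries are drawn. Cd74 reaches 3.30 and 4.21, while Ms4a7 and Apoe lie near 0.

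Differences between hyperoxia and air were fewer. At pnd7, 13 of 864 genes with 100 or more counts were 2-fold or more higher in hyperoxia (1.5%) and 42 lower (4.86%). As a mean over cells of CPM per cell the split was 35 higher and 42 lower. At pnd60, 5 of 735 were higher (0.68%) and 14 lower (1.9%). In the fit over both ages edgeR called 6 genes higher (0.124% of 4832) and 58 lower (1.2%), and DESeq2 called 2 in all, Col3a1 and Fn1.

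Of the chemokines, 3 of 9 with enough counts were 2-fold or more higher in hyperoxia at pnd7 (Ccl4, Ccl7 and Ccl12) and 2 of 8 at pnd60 (Cxcl13 and Ccl12), and none of these was lower by that much at either age. In the fit over both ages edgeR called 3 of 11 chemokines higher (Ccl4, Ccl7 and Ccl12) and Cxcl1, a neutrophil attractant, lower, at 123, 12.4, 53.6 and 9.89 CPM (−2.93 ± 0.61, adjusted p = 0.00025). Ccl12 stood at 349 CPM in air pnd7 and 976 CPM in hyperoxia pnd7, and at 207 CPM in air pnd60 and 465 CPM in hyperoxia pnd60. The log2 ratios were 1.48 (1.15 to 1.82) and 1.17 (0.67 to 1.68). Ccl7 stood at 280 and 869 CPM at pnd7 and at 126 and 312 CPM at pnd60, with a ratio of 1.64 (1.27 to 2.01) at pnd7 and too few counts for one at pnd60. Hyperoxia was thus above air at each age for both ligands. In the fit edgeR gave 1.35 ± 0.23 for Ccl12 (adjusted p = 1.7e-06) and 1.503 ± 0.25 for Ccl7 (adjusted p = 8.2e-07), whereas DESeq2 gave an adjusted p of 0.36 for each. Ccl12 was found in 13 of 30, 12 of 20, 17 of 67 and 18 of 52 members, and in hyperoxia pnd7 43% of its counts came from 1 cell. With members under 1% of foreign transcripts, edgeR gave adjusted p values of 0.37 and 0.39, so the calls were lost. Lost calls alone do not tell a smaller difference from fewer members, and this was not tested.

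Ccl4, which attracts several leukocyte types, stood at 50.3 CPM in air pnd7, 606 CPM in hyperoxia pnd7, 264 CPM in air pnd60 and 351 CPM in hyperoxia pnd60. Its ratio was 3.59 (2.84 to 4.43) at pnd7 and 0.41 (−0.09 to 0.91) at pnd60, and the difference between ages was not tested. EdgeR called it in the fit (1.81 ± 0.28, adjusted p = 3.9e-08) and DESeq2 did not. Atf3, a stress-responsive transcription factor, stood at 113, 400, 417 and 460 CPM, so that air pnd7 was the low library. Wwp1, a ubiquitin ligase, stood at 267, 391, 199 and 569 CPM and was called by edgeR (1.03 ± 0.25, adjusted p = 0.0055) and not by DESeq2. Among members under 1% of foreign transcripts, edgeR called 0 genes higher for exposure, so the calls of Ccl4 and Wwp1 were lost there too. Cxcl13, a B cell attractant, stood at 38.3 and 628 CPM in air and hyperoxia pnd60, but from 2 and 5 members, and 59% of the latter came from 1 cell.

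At pnd60, Ftl1, the light chain of the iron store ferritin, stood at 762 CPM in air and 1840 CPM in hyperoxia, with a ratio of 1.27 (1.02 to 1.53). At pnd7 it stood at 1238 and 1108 CPM. The same library pair gave ratios of 1.36 (1.28 to 1.44) in alveolar macrophages and 1.03 (0.86 to 1.20) in monocytes, so Ftl1 was higher in all 3 classes of hyperoxia pnd60. Its heavy-chain partner Fth1 stood at 6312 and 5288 CPM in C1q macrophages at pnd60. None of the 18 interstitial macrophage genes, 15 immediate early genes, 6 interferon-stimulated genes or 19 engulfment receptors tested was called for exposure by edgeR, beside 0.124% of all genes tested called higher and 1.2% called lower, so that lists of this size would hold few calls at that rate. Cd74 differed by −0.24 ± 0.12. The fit gave 327 genes an unadjusted p under 0.05 for exposure.

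The lower calls for exposure included 5 of 6 mesenchymal markers tested, the surfactant gene Sftpc and the alveolar macrophage genes Chil3 and Ear2. Col1a1, a collagen of fibroblasts, stood at 761, 12.4, 49.8 and 9.89 CPM, with air pnd7 the high library and 11 of its 30 members holding a count. Among members under 1% of foreign transcripts, 2 genes were called for exposure in all, Fn1 and Fcna, against 64 with all members. Both of these genes trace to few cells.

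**Figure D5:**
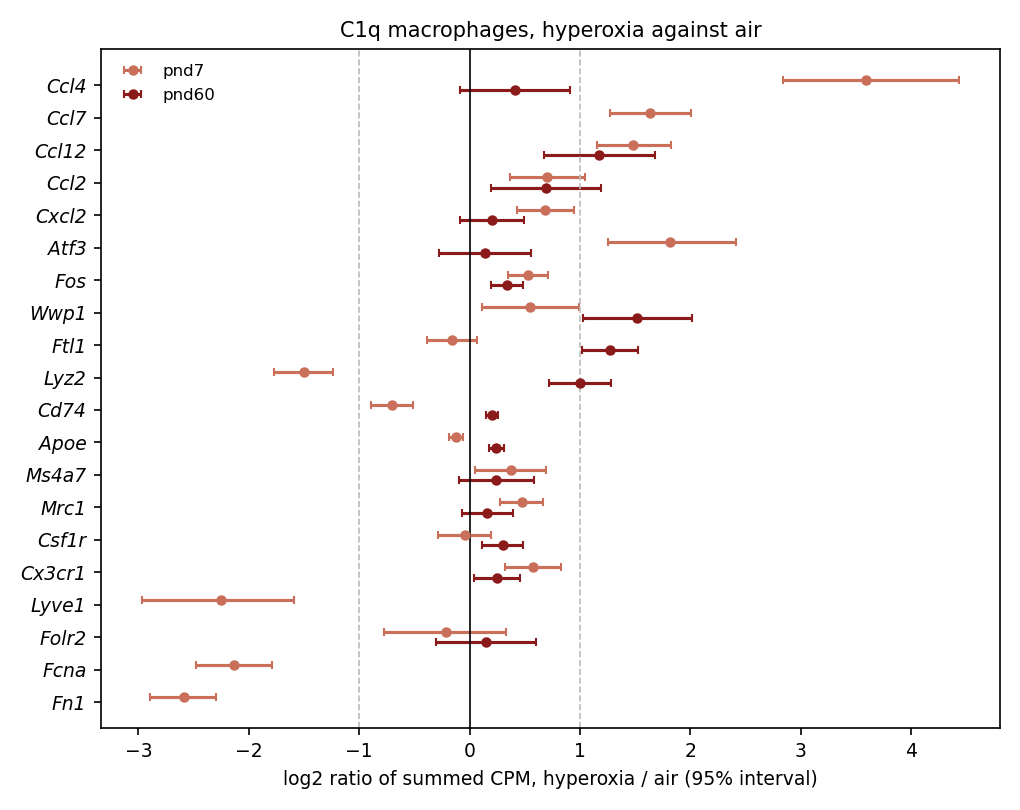
Log2 ratio of CPM in hyperoxia to air in C1q macrophages at pnd7 and pnd60, with 95% exact binomial intervals and dashed lines at 2-fold. Genes with fewer than 100 counts at pnd60 have no point there. Ccl12 is at 1.48 and 1.17, while Ccl4 is at 3.59 and 0.41.

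Fcna, the lectin ficolin A that starts the lectin pathway of complement, stood at 1515 CPM in air pnd7, 346 CPM in hyperoxia pnd7, 42.1 CPM in air pnd60 and 14.8 CPM in hyperoxia pnd60. Its counts lay in few cells. In air pnd7, 4 members held 49, 190, 14 and 223 counts, which was 98.8% of the library's Fcna, and in hyperoxia pnd7 1 member held 82 counts, or 97.6%. No member at pnd60 held 10 or more. These 5 cells also held 93.2% and 92.5% of Fn1, the matrix protein fibronectin, in their libraries, and in air pnd7 98% of Timd4, a receptor for dying cells, 95% of Thbs1 and 83.9% of Lyz2. All 5 had no count of Ms4a7 or Cd74, and Cx3cr1 was at 0 in the 4 cells of air pnd7 and at 1 count in the other. Foreign transcripts made up 0.0947% to 0.162% of the counts in the 4 cells of air pnd7, so those of other lineages were near 0 in them. At pnd7 the C1q rule thus took in a few cells without the Ms4a7 counts of most members. Cd74 was detected in 15 of 30 members of air pnd7, so its absence does not set these cells apart there.

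Values that rest on these cells moved without them. Lyz2, the lysozyme of myeloid cells, stood at 1700, 601, 666 and 1331 CPM, and most of the air pnd7 value was theirs. The share of C1q macrophages became 1.13% (0.737 to 1.65) in air pnd7 and 1.52% in hyperoxia pnd7. The genes 2-fold or more apart between hyperoxia and air at pnd7 became 15 higher and 20 lower of 636, and the age calls of edgeR became 482 higher and 433 lower. The limit of 10 Fcna counts was set after seeing the data.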

How the data were processed

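Lungs of C57BL/6J mice were dissociated and single cells were captured on the 10x Genomics Chromium platform. The deposited matrices hold raw UMI counts per feature and barcode. Per the labels, the submitters' processing notes name Cell Ranger and Seurat 3.2.1 with build mm10, and the annotation was not given in the sources used here. The authors' limits of more than 700 and fewer than 8000 genes and under 5% mitochondrial counts were applied here, giving 16648251, 13576172, 14744081 and 16533775 counts in the filtered cells of air pnd7, hyperoxia pnd7, air pnd60 and hyperoxia pnd60. Members and gene lists were chosen with earlier results of these data known. Of 34 gene lists, members that were called or most abundant were named, with the 10 highest and 10 lowest genes of each comparison. Jun, Cdkn2a, the ribosomal protein genes and the Fcna-rich cells were singled out after their values were seen.

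Counts were summed over the members of each library and given as CPM. Ratios between 2 libraries used genes with 100 or more counts, exact conditional binomial intervals and a floor of 3 counts for a library at 0, without a test. Classes were compared with edgeR 4.0.16 (quasi-likelihood, TMM, filterByExpr, library as block, Benjamini-Hochberg adjustment), and age and exposure with both terms over 4 libraries. DESeq2 1.42.0 was an alternative. P-values rest on the spread between these libraries, moderated across genes by the programs. For age and exposure 1 residual degree of freedom was left. Those p-values therefore lean on the spread shared across genes, and they measure no spread between replicate libraries of a condition. Scripts were tested on simulated data. Scrublet, run through scanpy 1.11.5, called 0.0433%, 0.321%, 3.14% and 3.28% of cells doublets, 1 of them a member in air pnd60. Its rates at pnd7 were too low to trust, so doublets were kept and left out only as an alternative. Alternatives covered cell filters, the C1q limit, count and fold limits, thinning, scaling, and leaving out each library. Some genes of the lists are counted in them but are not reported here by name.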

Additional observations from a re-analysis of the deposited data

Results flagged for a closer look

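The 4 hemoglobin genes went in opposite directions with exposure at the 2 ages, a difference that was not tested. The log2 ratio of hyperoxia to air was 2.87 at pnd7 and −7.61 at pnd60 for Hba-a1, 2.90 and −8.82 for Hba-a2, 2.66 and −7.55 for Hbb-bs, and 3.31 and −7.35 for Hbb-bt. Hba-a1 had 0 counts in hyperoxia pnd60, so its −7.61 is a bound against the floor of 3 counts, with an upper limit of −7.31. The pnd7 direction turned for 3 of these genes: as a mean over cells Hba-a1, Hba-a2 and Hbb-bs were at −0.30, −0.36 and −0.45, and after thinning cells to 1000 counts at −0.55, −0.61 and −0.33, the sign seen at pnd60. In hyperoxia pnd7 98% of the Hbb-bs counts came from 1 cell, and in air pnd60 99%. Retnla, a secreted protein of alternatively activated macrophages, had ratios of 5.92 and −4.90, where the first is a bound against 0 counts. All of its counts in hyperoxia pnd7 came from 1 member and 89% of those in air pnd60 from 1 member.

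The C12FDG-sorted library, used in no test, stood apart from the unsorted ones. The C1q rule took 60 of its 493 filtered cells, or 12.2% (9.42 to 15.4). Of these 60 cells, 10 also met the alveolar macrophage rule, against at most 1 member in each unsorted library, and 9 held 1% or more of foreign transcripts. The part of these cells in the sums that follow was not tested. In these cells the summed level was 16016 CPM for chemokines, 45914 CPM for iron and heme genes, 10732 CPM for antioxidant genes and 12839 CPM for the secretory (SASP) genes that the study names. Each of these sums was 2-fold or more above every unsorted library. Fth1, the ferritin heavy chain, led the iron list at 32990 CPM and the neutrophil attractant Cxcl2 led the chemokines at 9635 CPM, against at most 6547 and 1137 CPM in the unsorted libraries. The sort, the pooling of 3 mice and the library cannot be told apart.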

How the results depend on the processing

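The comparisons of classes had library as a block. Between conditions, no paired analysis was possible because there was 1 library per condition. Calls against alveolar macrophages (1205) and monocytes (1018) ranged from 1027 to 1273 and from 710 to 1057 when each library was left out in turn, and became 1959 and 1656 with no filter on low counts. Between hyperoxia and air at pnd7, 55 genes 2-fold apart became 131 with 50 counts, 24 with 200 counts, 149 at 1.5-fold, 1 after thinning cells to 1000 counts and 35 without members of 10 or more Fcna counts. At pnd60, 19 became 56, 7, 70 and 4 under the first 4 of these. Between pnd60 and pnd7, 271 in air became 575, 115, 502 and 42, and 172 in hyperoxia became 394, 73, 376 and 22. The fewer genes left by thinning and by higher count limits lie in their construction.

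Age calls (994) became 149 with DESeq2. Exposure calls (64) became 28 with a wider cell filter, 15 and 9 with C1q limits of 500 and 2000 CPM, 26 with all 3 C1q genes required, 8 without Scrublet doublets, 14 without cells that also met the alveolar rule, 2 under 1% of foreign transcripts, 134 with no filter and 2 with DESeq2. These calls thus moved under most alternatives, and the cause was not tested. The share in air pnd7 became 0.823% under 1% of foreign transcripts and 1.51% among cells with under 10% of hemoglobin counts.

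Cell cycle shares became 73.3%, 75%, 29.9% and 36.5% without thinning, and at 1000 counts 26.7% in air pnd7, 5% in hyperoxia pnd7, 7.46% in air pnd60 and 5.77% in hyperoxia pnd60. As a mean over cells the summed CPM was 1609 and 2249 for MHC class II genes, 7978 and 9585 for immediate early genes, 2531 and 1031 for cell cycle genes, 3056 and 6193 for chemokines, and 5299 and 3471 for Lyve1-high genes in air pnd7 and hyperoxia pnd7. It was 19254 for immediate early genes and 4307 for chemokines in hyperoxia pnd60, and 4650 for Lyve1-high genes in air pnd60.

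Directions of single genes turned as follows, and the cause was not tested. For hyperoxia against air at pnd7, without Fcna-rich members Ednrb was 0.080, Fabp5 0.54 and Timd4 0.62. After thinning F5 was 1.17, Fabp5 1.58, Itgb2 0.58, Hba-a1 −0.55, Hba-a2 −0.61 and Hbb-bs −0.33. As a mean over cells Hba-a1 was −0.30, Hba-a2 −0.36 and Hbb-bs −0.45. Under 1% of foreign transcripts Sftpa1 was 1.498 and Sftpc 0.032. For pnd60 against pnd7 in air, without Fcna-rich members Cfp was 0.87, Emilin2 0.22 and Fcna 0.68. Under 1% of foreign transcripts Col1a1 was 0.57, Col1a2 0.56, Col3a1 2.03, Hba-a2 −2.50, Sftpa1 2.84 and Sftpc 0.19. Thinned, Fabp5 was 1.16 and Hba-a2 −1.41, and Hba-a2 was −1.38 as a mean over cells. In hyperoxia Ccl6 was 0.55 without Fcna-rich members. Against monocytes Col1a1 was −0.66 under 1% of foreign transcripts. In the age fit Ccl6 was 0.088 without Fcna-rich members, and Col1a2 was 0.61 and Sftpc 0.21 under 1%. In the exposure fit Abcg1 was 0.093 without cells of the alveolar rule, Sftpc 0.12 under 1%, and Rn7sk −0.29 with 3 of 8 macrophage genes required, −0.25 at 2000 CPM, −0.29 with all 3 C1q genes and −0.12 under 1%.

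The alternatives on foreign transcripts, on 3 of 8 macrophage genes, on Fcna and on Ccr2 were chosen after seeing the data. Of the values of named genes, 2049 against alveolar macrophages and 1952 against monocytes kept direction and call, and 50 and 134 lost the call. For age 1063 kept both, 149 lost the call and 3 turned, and for exposure 178 kept both, 152 lost the call and 6 turned. Comparisons of conditions are limited by 1 library each and by 20 to 67 members per library.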

Other observations

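Ribosomal protein genes were a group chosen after its values were seen. Of 76 tested in the age fit (pnd60 against pnd7), edgeR called 23 lower and 1 higher, with a median of −0.82, beside 9.93% lower and 10.6% higher of all genes tested. DESeq2 also called 23 lower and 1 higher, beside 81 lower and 68 higher of all 4832. They made up 14.3%, 13.6%, 8.78% and 9.05% of the counts of C1q macrophages in air pnd7, hyperoxia pnd7, air pnd60 and hyperoxia pnd60. Alveolar macrophages gave 13.2%, 12.3%, 8.99% and 9.01%, and monocytes 14.3%, 13.2%, 12.0% and 11.9%.

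Heat shock genes were lower at pnd60 in 4 of 8 by edgeR, beside 9.93% of all genes tested, with a median of −0.99. None of the 8 was called by both tools. Hspe1, a mitochondrial chaperone, stood at 248, 276, 115 and 84.1 CPM. Of 15 cytokine and receptor genes tested edgeR called 7 higher and 2 lower, Ccr1 being the gene called by both tools. Il10, an anti-inflammatory cytokine of interstitial macrophages, stood at 6.29, 0, 61.3 and 98.9 CPM in 1, 0, 6 and 8 members. The p53 and senescence list had 1 gene higher (Cdkn1a, at 22, 28.8, 91.9 and 64.3 CPM) and 3 lower of 9 with age, beside 10.6% and 9.93% of all genes tested, and 0 higher and 1 lower of 9 with exposure by edgeR. Cdkn2a had no count in the members of any library.

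Of a list of genes known from other resident macrophages, 2 of 13 tested were higher and 5 lower in C1q macrophages than in alveolar macrophages, with a median of −0.12, and 2 of 11 were higher and 2 lower than in monocytes, with a median of −0.26. Of all genes tested, 9.67% were higher and 8.71% lower in the first comparison and 8.52% and 7.33% in the second. The higher ones were Tmem119 and P2ry12, known from brain macrophages, in both comparisons. The lower ones were Bhlhe41, Csf2rb, Cebpb, Bhlhe40 and Nr1h3 against alveolar macrophages and Cebpb and Csf3r against monocytes. Snx6, a sorting nexin, stood at 512, 717, 61.3 and 89 CPM, and Pycard, an inflammasome adaptor, at 393, 354, 57.5 and 79.1 CPM. Both pnd7 libraries were above both pnd60 libraries in each.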
